A study of Mus musculus with 6 samples.

Results

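The *Gata* genes described here are *Gata2*, *Gata3*, *Gata4*, *Gata5* and *Gata6*, and the data are the accessible chromatin intervals nearest to them in mouse neural stem/progenitor cells (NSPCs). An interval was counted at a *Gata* gene if the nearest transcription start site (TSS) of a protein-coding gene to its strongest summit belonged to that gene and lay no more than 50 kb away. By this rule 35 of 190365 intervals belonged to the 5 genes, 11 of 82885 in parent NSPCs and 24 of 107480 in ΔSRR2–18 NSPCs. Both genotypes were derived from 129S1/Cast F1 hybrid embryonic stem cells with an mCherry tag at *Sox2* on the 129S1 allele. The parent cells (clone 5B) carried no deletion, and the ΔSRR2–18 cells (clone 47D) had lost the *Sox2* enhancer cluster SRR2–18 from both alleles, so each genotype is 1 clone. Cultures were grown on poly-D-lysine and laminin in N2B27 medium with EGF and bFGF, and 3 cultures per genotype were assayed by ATAC-seq, in which a transposase cuts and tags open DNA.

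The peaks were deposited as 2 pooled, reproducibility-filtered lists per genotype, a conservative one, used throughout unless stated, and a less stringent optimal one, so replicate spread is unknown for every value below and the genotypes could not be compared by a test. By the lowest background among the peaks of each list, taken as its genome-wide mean pileup, the pooled parent reads were 1.98 times as deep as the ΔSRR2–18 reads. This bears on every height and every absence given here. Heights are therefore given as depth-scaled summit heights, the reads piled up at the strongest summit divided by the genome-wide mean pileup of that list (38.8 reads in parent and 19.7 in ΔSRR2–18). The deleted span on chromosome 3 held 4 parent intervals and 0 ΔSRR2–18 intervals. All 8 genes of a neural stem and progenitor list, among them *Nes*, *Pax6* and *Sox1*, had an interval within 1 kb of a TSS in both genotypes. Accessibility in bulk cultures does not separate a change in every cell from a change in the share of cells, and it measures neither RNA nor protein.

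GATA factors are zinc-finger proteins that bind the short sequence for which they are named. *Gata2* and *Gata3* are best known from blood, where they act in stem cells and T cells, and in the nervous system they specify V2b interneurons of the spinal cord and GABAergic neurons of the midbrain. *Gata4*, *Gata5* and *Gata6* are known for their roles in heart and endoderm and are not used as markers of neural progenitors. Distal enhancers, often in introns or far upstream, drive much of the tissue-specific expression of these genes.

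The windows reaching 100 bases to either side of the strongest ΔSRR2–18 summit are shown for the distal intervals of *Gata2* to *Gata5* in which a GATA or an AP-1 motif lay within 100 bp of that summit, because these windows hold the motif matches counted later for the distal intervals of these 4 genes. The *Gata6* sites, which supply 4 of the 8 distal ΔSRR2–18-only intervals of the family with either motif, are given by their values only. They are the forward strand of the mm10 reference genome and not reads of the hybrid cells. Capitals mark GATA matches (AGATAA as well as AGATAG, and likewise TGATAA as well as TGATAG) and AP-1 matches (TGACTCA), on either strand. None of the windows overlapped an annotated exon.
*Gata2*, 4082 bp upstream of the distal TSS, listed in both genotypes, chr6:88189709-88189909: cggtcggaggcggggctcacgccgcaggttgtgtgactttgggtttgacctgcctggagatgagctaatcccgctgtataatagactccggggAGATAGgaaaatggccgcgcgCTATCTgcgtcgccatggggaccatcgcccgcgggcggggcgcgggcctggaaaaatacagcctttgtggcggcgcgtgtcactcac
*Gata2*, intron, ΔSRR2–18 only, chr6:88203414-88203614: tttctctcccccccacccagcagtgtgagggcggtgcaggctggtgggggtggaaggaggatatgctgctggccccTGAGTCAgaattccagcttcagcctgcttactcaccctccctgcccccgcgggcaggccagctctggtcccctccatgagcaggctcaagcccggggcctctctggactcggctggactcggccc
*Gata3*, 1083 bp upstream of the TSS, listed in both genotypes, chr2:9879583-9879783: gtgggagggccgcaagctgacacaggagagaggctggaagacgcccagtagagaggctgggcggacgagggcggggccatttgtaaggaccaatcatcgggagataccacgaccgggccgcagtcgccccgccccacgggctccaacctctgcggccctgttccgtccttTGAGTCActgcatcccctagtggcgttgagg
*Gata3*, intron, ΔSRR2–18 only, chr2:9860799-9860999: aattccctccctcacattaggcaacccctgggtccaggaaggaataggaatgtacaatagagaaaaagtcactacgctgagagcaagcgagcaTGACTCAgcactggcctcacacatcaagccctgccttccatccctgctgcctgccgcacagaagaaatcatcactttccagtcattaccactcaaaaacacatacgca
*Gata4*, intron, ΔSRR2–18 only, chr14:63222256-63222456: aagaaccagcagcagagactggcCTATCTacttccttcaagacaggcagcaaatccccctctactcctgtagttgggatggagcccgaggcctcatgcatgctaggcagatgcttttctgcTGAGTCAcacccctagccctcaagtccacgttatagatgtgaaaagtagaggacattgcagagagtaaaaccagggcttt
*Gata4*, 28986 bp upstream, ΔSRR2–18 only, chr14:63274157-63274357: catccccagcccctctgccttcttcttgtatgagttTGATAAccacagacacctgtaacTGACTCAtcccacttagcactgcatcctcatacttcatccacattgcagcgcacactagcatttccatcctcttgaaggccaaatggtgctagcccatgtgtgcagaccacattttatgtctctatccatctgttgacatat
*Gata5*, 12598 bp upstream, listed in both genotypes, chr2:180347197-180347397: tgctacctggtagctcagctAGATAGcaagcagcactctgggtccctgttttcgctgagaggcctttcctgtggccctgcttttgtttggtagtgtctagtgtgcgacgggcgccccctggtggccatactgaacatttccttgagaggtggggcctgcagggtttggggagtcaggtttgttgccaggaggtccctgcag

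All 5 *Gata* genes had more intervals in ΔSRR2–18 NSPCs than in parent NSPCs. The number went from 3 to 5 at *Gata2*, from 2 to 5 at *Gata3*, from 4 to 6 at *Gata4*, from 1 to 2 at *Gata5* and from 1 to 6 at *Gata6*. Among all 21924 protein-coding genes, 36.8% had more intervals in ΔSRR2–18, 22.4% had fewer and 19.5% had none in either list. An increase of 5 or more, as at *Gata6*, was found at 4.58% of genes, an increase of 3 or more, as at *Gata3*, at 12.4%, and an increase of 2 or more, as at *Gata2* and *Gata4*, at 20.6%.

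**Figure D1:**
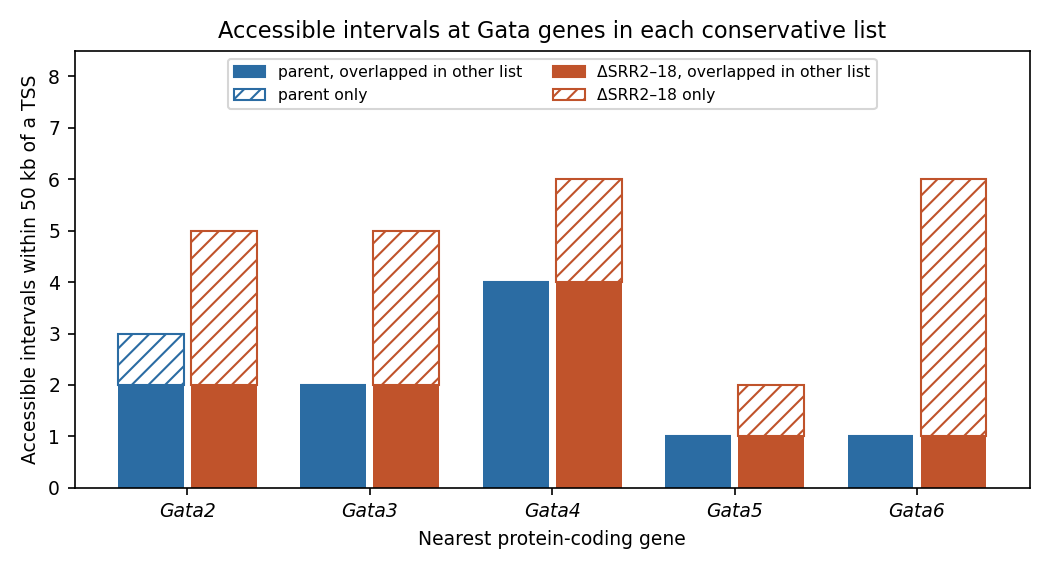
Number of accessible intervals (y axis) within 50 kb of a TSS of each *Gata* gene (x axis) in the conservative list of parent (blue) and ΔSRR2–18 (orange) NSPCs, where filled bars are intervals that overlap the other list and hatched bars are found in that list only. Each of the 5 genes has a ΔSRR2–18-only interval, and *Gata2* alone has a parent-only interval.

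Of the 24 ΔSRR2–18 intervals, 14 (58.3%) overlapped no parent interval, against 63.1% of the whole ΔSRR2–18 list. Of the 11 parent intervals, 1 (9.09%) overlapped no ΔSRR2–18 interval, against 52.3% of the whole parent list. That count rests on few intervals and was 3 of 15 in the optimal lists and 3 of 14 within 100 kb. Within 1 kb of a TSS, 2 of 6 ΔSRR2–18 intervals and 0 of 4 parent intervals were found in 1 genotype only, where the shares over all promoter intervals were 14% and 8.91%. Beyond 1 kb, 12 of 18 ΔSRR2–18 intervals (66.7%) and 1 of 7 parent intervals (14.3%) were, with shares over all distal intervals of 70.9% and 61%. The ΔSRR2–18-only shares at *Gata* genes thus lay slightly below those of the list, apart from the few promoters, and the parent-only shares lay further below. The shares over the lists were taken without the 50 kb limit. None of these differences was tested, since neighbouring intervals of 1 gene are not independent.

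**Figure D2:**
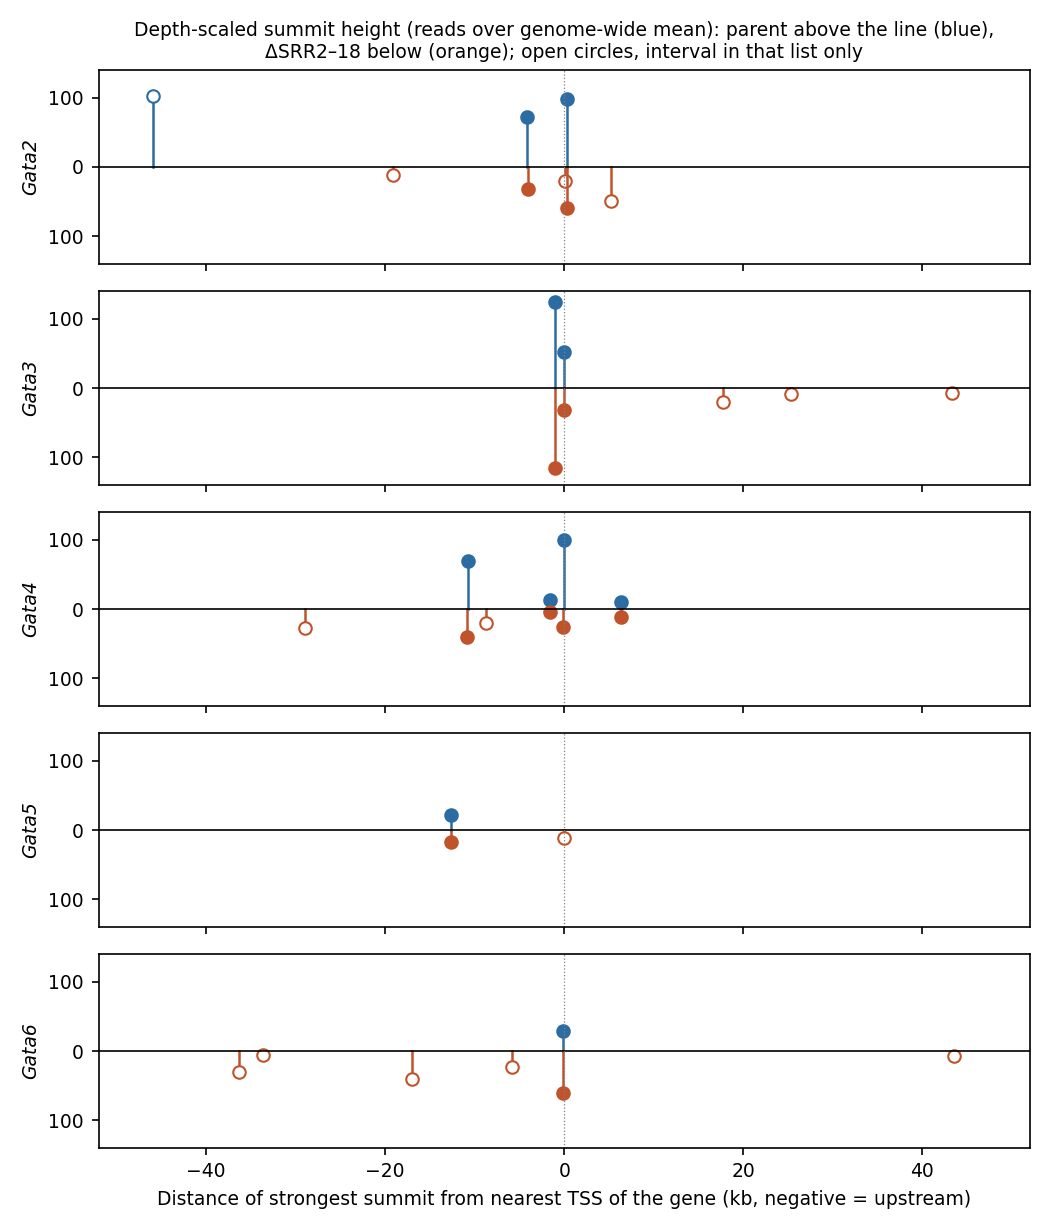
Distance of the strongest summit from the nearest TSS of the gene (x axis, kb, negative upstream) against depth-scaled summit height (y axis, reads over the genome-wide mean), with parent NSPCs above the line in blue, ΔSRR2–18 NSPCs below it in orange, and open circles for intervals in 1 list only. Apart from 1 tall site 45966 bp upstream of *Gata2*, the parent intervals lie between 12604 bp upstream and 6292 bp downstream of a TSS, and 4 of the 5 ΔSRR2–18-only intervals of *Gata6* lie upstream.

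*Gata2* (ENSMUSG00000015053.14, chromosome 6, plus strand) has 2 annotated TSSs, a distal one at 88193891 and a proximal one at 88198334. The proximal promoter was open in both genotypes, with its strongest summit in exonic sequence. It had 3821 reads and a height of 98.4 in parent and 1175 reads and a height of 59.8 in ΔSRR2–18 NSPCs, a ratio of 0.61. Promoters that overlapped between the lists had a median ratio of 0.72, so the *Gata2* proximal promoter lay at 0.84 times the median of its class.

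The distal *Gata2* promoter was on the conservative list of ΔSRR2–18 NSPCs only (chr6:88193462-88194157), with 393 reads, a height of 20.0 and a fold enrichment over local background of 3.42. It is not a site without parent signal. In the less stringent optimal list of the parent, an interval with its summit 14 bp away had 857 reads and a height of 22.1, so the ΔSRR2–18 height was 0.91 times the parent height.

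Upstream of the distal promoter, an interval in an intron of the lincRNA gene *Gm38708* was open in both genotypes. Its height was 72.3 in parent (2810 reads) and 31.2 in ΔSRR2–18 (613 reads), a ratio of 0.43, and 13.9% of distal pairs had a lower ratio. It holds 2 GATA matches whose starts lie 21 bases apart, the capitals of the first sequence above, the nearer one 4 bp from the ΔSRR2–18 summit. By reads it stood in the highest 14.2% of parent intervals and the highest 29.3% of ΔSRR2–18 intervals.

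The single parent-only interval of the family lay 45966 bp upstream of *Gata2* in intergenic DNA (chr6:88147259-88148277). With 3978 reads and a height of 102 it was the tallest parent interval of *Gata2* and among the highest 7.67% of the parent list. Neither ΔSRR2–18 list had an interval there. A further parent-only interval lay just past the distance limit, at 53464 bp from *Gata2*, with a height of 72.5.

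The tallest ΔSRR2–18-only interval of the family was in a *Gata2* intron (chr6:88203174-88204564), 5180 bp downstream of the proximal TSS and 9623 bp downstream of the distal one. It held 5 summits, the strongest with 960 reads and a height of 48.8, which placed it in the highest 16.5% of its list, and no parent list had an interval there. An AP-1 match lay 21 bp from that summit, and no GATA match lay within 100 bp of it. Near its left edge the interval contained an E-box (CATCTG) followed by a GATA site (AGATAA), with 8 bases between them, a composite arrangement known from a *Gata2* intronic enhancer in blood and endothelial cells.
*Gata2* intron, E-box and GATA site in capitals, forward strand of mm10, chr6:88203185-88203204: CATCTGcagccggtAGATAA
Searched on both strands with the same spacing, this composite occurred in 13 of 107480 ΔSRR2–18 intervals (0.0121%) and 17 of 82885 parent intervals (0.0205%). Whether a factor bound it was not measured. The remaining ΔSRR2–18-only interval, 19146 bp upstream, was low, with 225 reads and a height of 11.4.

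*Gata3* (ENSMUSG00000015619.10, chromosome 2, minus strand, TSS at 9878600) had the tallest site of the family by summit reads and by depth-scaled height in both genotypes, though not by fold enrichment. An interval just outside the promoter limit lay 1065 bp upstream of that TSS in parent and 1083 bp in ΔSRR2–18. It was in no transcript used for the TSSs, but within the full annotated span of *Gata3*, 9857078 to 9890034. It reached a height of 124 in parent (4821 reads) and 116 in ΔSRR2–18 (2277 reads). The ratio of 0.93 was close to the median of all distal pairs, 1.00. By reads this site stood in the highest 4.69% of the parent list and the highest 2.26% of the ΔSRR2–18 list. By fold enrichment the order was reversed, with the highest 17.5% in parent and the highest 32.7% in ΔSRR2–18. An AP-1 match lay 73 bp from the ΔSRR2–18 summit.

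The interval over the *Gata3* TSS itself was lower in both lists. It overlaps an exon of the antisense gene *Gm13256*, so its accessibility cannot be assigned to *Gata3* alone. Its height was 52.5 in parent (2040 reads) and 31.3 in ΔSRR2–18 (615 reads), a ratio of 0.60 or 0.83 times the promoter median.

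The 3 further *Gata3* intervals were found in ΔSRR2–18 NSPCs only, and all lay on the downstream side of the TSS. The tallest was in an intron 17701 bp from the TSS (chr2:9860741-9861316), with 406 reads, a height of 20.7 and a fold enrichment of 19.7. Its summit lay 4 bp from the centre of an AP-1 match. The other two were intergenic, at 25294 bp and 43261 bp, with heights of 8.14 and 7.43, both in the lower range of the list. A taller ΔSRR2–18-only interval (height 55.1) fell beyond the limit, at 60226 bp.

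*Gata4* (ENSMUSG00000021944.15, chromosome 14, minus strand) has neighbouring annotated TSSs at 63245248 and 63245271 and an internal one at 63213607. The annotated gene begins further upstream, at 63271692, but distances are counted from the 3 TSSs. The site 10765 bp upstream thus lay within the gene span, and the one 28986 bp upstream lay outside it. Its promoter showed the largest fall in height among the 10 overlapping pairs of the family. The height was 99.2 in parent (3853 reads) and 25.7 in ΔSRR2–18 (505 reads), 3.86-fold lower, and 2.01% of overlapping promoters had a lower ratio. The same interval went from the highest 8.19% of parent intervals to the highest 35.9% of ΔSRR2–18 intervals.

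The other 3 *Gata4* sites open in both genotypes did not move together. The interval 10765 bp upstream in parent had a height of 69.4 (2695 reads) and 40.6 in ΔSRR2–18 (798 reads). The interval upstream of the internal TSS fell from 12.4 (483 reads) to 4.83 (95 reads), which placed it near the bottom of the ΔSRR2–18 list. The intronic interval 6292 bp downstream of the internal TSS was low in both, at 9.53 (370 reads) and 11.5 (227 reads).

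At *Gata4*, 2 intervals were found in ΔSRR2–18 NSPCs only. One was intronic (chr14:63222084-63222706), with 405 reads, a height of 20.6 and a fold enrichment of 19.7. The other lay 28986 bp upstream (chr14:63274026-63275218), with 537 reads, a height of 27.3 and a fold enrichment of 16.8. Each window holds both an AP-1 and a GATA match, the capitals in the *Gata4* sequences above, and neither was on a parent list. *Gata4* thus had a lower promoter beside distal intervals that appeared in 1 list.

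*Gata5* (ENSMUSG00000015627.5, chromosome 2, minus strand, TSS at 180334699) was the member with the lowest maximum height in both genotypes. In both genotypes it had an intergenic interval, 12604 bp upstream in parent and 12598 bp in ΔSRR2–18. The height was 21.1 in parent (820 reads) and 16.7 in ΔSRR2–18 (328 reads), a ratio of 0.79. The GATA match printed above lies 77 bp from the ΔSRR2–18 summit.

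The *Gata5* promoter was on the conservative list of ΔSRR2–18 NSPCs only (chr2:180333742-180335107), with 4 summits, 214 reads and a height of 10.9 at the strongest. That summit lay 5 bp upstream of the TSS and within an intron of the antisense gene *Gata5os*. The parent optimal list again held an overlapping interval, with 244 reads and a height of 6.28, so the height was 1.73 times as large in ΔSRR2–18. In the optimal lists *Gata5* had 4 parent and 2 ΔSRR2–18 intervals, the reverse of the order in the conservative lists.

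*Gata6* (ENSMUSG00000005836.10, chromosome 18, plus strand, TSS at 11052470) had the largest gain in number of intervals, and its promoter was the only one of the 4 promoters on both conservative lists that was higher in ΔSRR2–18. The promoter height was 28.5 in parent (1106 reads) and 61.3 in ΔSRR2–18 (1206 reads), so the shallower library had more reads. The ratio was 2.15, against the promoter median of 0.72, and 3.81% of overlapping promoters had a higher ratio. By reads it rose from the highest 35.1% of the parent list to the highest 11.3% of the ΔSRR2–18 list.

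The direction at the *Gata6* promoter depended on the measure. By fold enrichment over local background the promoter stood lower in ΔSRR2–18, in the highest 63.7% against the highest 41.2% in parent. The local background there was 144 reads in ΔSRR2–18 and 94.4 in parent, although the ΔSRR2–18 library was the shallower. The ΔSRR2–18 interval contained 5 summits and the parent interval 4.

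The other 5 *Gata6* intervals were all in ΔSRR2–18 NSPCs only, and none overlapped an interval of a parent list. The tallest lay 17000 bp upstream, with 802 reads, a height of 40.8 and a fold enrichment of 23.4, the highest enrichment among the ΔSRR2–18 intervals of the family. Those at 36358 bp and 5857 bp upstream had heights of 30.8 (606 reads) and 23.7 (465 reads). The remaining pair, at 33687 bp upstream and 43566 bp downstream, had heights of 4.99 and 6.51 and the lowest reproducibility scores of the family, 552 and 563 out of 1000. The 4 upstream sites were in introns of the noncoding gene *1010001N08Rik*, whose TSS was closer to them than that of *Gata6*. The choice of the nearest protein-coding gene thus decided their assignment. It also decided that of the ΔSRR2–18-only *Gata3* intervals, which lay closer to the TSS of *Gm13256*. The same held for all *Gata2* intervals upstream of the distal promoter, which lay closer to the TSS of *Gm38708*. At least 5 ΔSRR2–18-only intervals were found at 9.49% of all genes. A parent-only interval (height 42.6) lay outside the limit, at 75511 bp.

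Across the 10 overlapping pairs of the family, 8 had a lower depth-scaled height in ΔSRR2–18 and 2 a higher one. The median ratio was 0.60, against 0.85 over all 40114 overlapping pairs. By class it was 0.60 against 0.72 for the 4 promoter pairs and 0.69 against 1.00 for the 6 distal pairs. The fall was at least 2-fold at 3 pairs, the *Gata4* promoter, the interval upstream of the internal *Gata4* TSS and the *Gata2* interval in *Gm38708*, and 16.5% of all pairs fell that far. The rise was at least 2-fold at 1 pair, the *Gata6* promoter, as at 16% of all pairs. The strongest summits of a pair lay 1 to 94 bp apart. The largest distance was at the *Gata4* promoter, where both intervals held 2 summits, so its 2 heights may come from different summits.

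**Figure D3:**
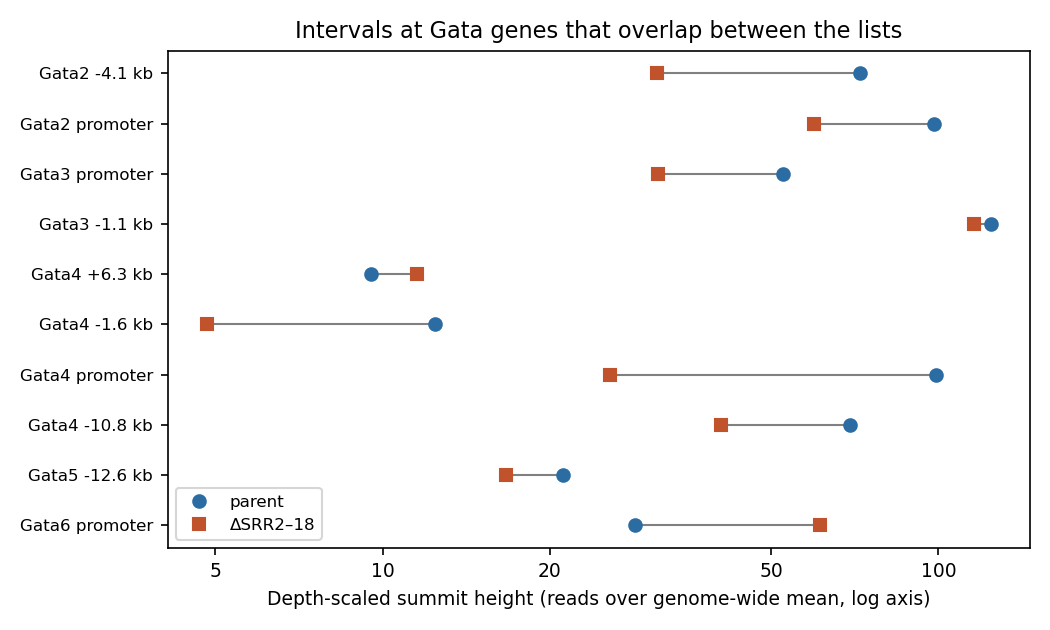
Depth-scaled summit height (x axis, reads over the genome-wide mean, log axis) of the 10 intervals at *Gata* genes that overlap between the lists, with parent NSPCs as blue circles and ΔSRR2–18 NSPCs as orange squares, joined by a line. Only the *Gata6* promoter and the low intronic *Gata4* interval have the ΔSRR2–18 value on the right, and the *Gata4* promoter has the longest line to the left.

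The 12 distal ΔSRR2–18-only intervals had heights from 4.99 to 48.8 with a median of 20.6, where the median over all distal ΔSRR2–18-only intervals was 14.6. Of these, 7 lay upstream and 5 downstream of the nearest TSS of the gene. In the annotation 3 were in an intron of the *Gata* gene itself, 4 in an intron of a noncoding gene and 5 were intergenic. An AP-1 match within 100 bp of the strongest summit was present in 7 of the 12 (58.3%), against 42.2% of all distal ΔSRR2–18-only intervals and 3.67% of windows 500 bp away from those. The 7 comprised 1 site at *Gata2*, 1 at *Gata3*, 2 at *Gata4* and 3 at *Gata6*. AP-1 is a dimer of FOS and JUN proteins that binds many inducible enhancers.

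The GATA motif was no more frequent at these summits than in the sequence beside them. It was found near the strongest summit in 4 of the 12 (33.3%), against 28.0% of all distal ΔSRR2–18-only intervals. In windows 500 bp away it occurred in 35.3% of the latter, and beside the 12 *Gata* intervals in 50%. Over all ΔSRR2–18 intervals at *Gata* genes, 7 of 24 (29.2%) had a GATA match and 8 of 24 (33.3%) an AP-1 match, where the whole list had 23.3% and 31.0%. Over the parent intervals, 3 of 11 had a GATA match and 1 of 11 an AP-1 match, where the whole list had 17.2% and 5.13%.

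**Figure D4:**
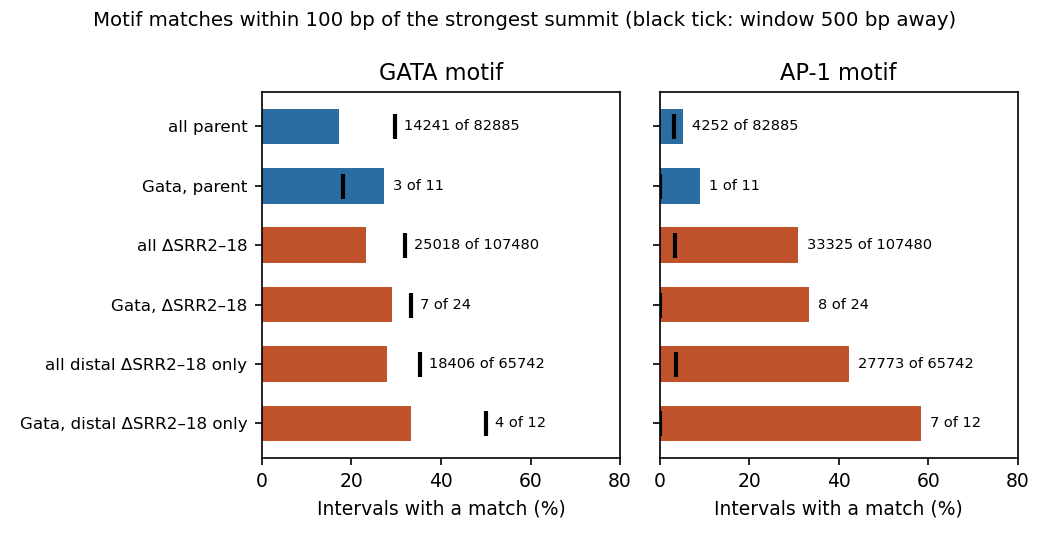
Share of intervals (x axis, %) with a GATA motif (left) or an AP-1 motif (right) within 100 bp of the strongest summit, for all intervals and for those at *Gata* genes in parent (blue) and ΔSRR2–18 (orange) NSPCs, with the numbers beside the bars and a black tick for the share in a window 500 bp away. The AP-1 bars stand far above their ticks in ΔSRR2–18, and the GATA bars mostly lie below theirs.

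A list of 11 cofactors and relatives of GATA factors had 56 intervals in parent and 50 in ΔSRR2–18 NSPCs, with more in ΔSRR2–18 at 4 genes, fewer at 3 and the same number at 4. The 3 with fewer were the adaptor *Lmo1* (11 and 6), the FOG cofactor *Zfpm1* (10 and 6) and *Lyl1* (4 and 3). The FOG cofactor *Zfpm2* (4 and 4) and the adaptors *Lmo2* (5 and 5) and *Ldb1* (3 and 3) had equal numbers, and the partner *Tal1* had 4 and 5. The list also holds *Trps1*, itself a GATA-type zinc-finger gene, with 7 and 8. *Gata1*, the erythroid member of the family, had 0 intervals in both lists. The 12 genes of V2b and midbrain GABAergic neurons, a neural setting in which *Gata2* and *Gata3* act, had 40 and 53 intervals, 1.33 times as many in ΔSRR2–18 where the whole list had 1.30 times. Of these 7 genes had more in ΔSRR2–18, led by *Gad2*, which makes GABA, with 2 and 9, and 3 had fewer, among them the selector *Helt* with 5 and 3. *Tal1* and *Tal2* stand on both lists, and *Tal1* and *Lmo2* also on that of blood and endothelium.

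The whole ΔSRR2–18 list, taken without the 50 kb limit of the gene counts, was 1.30 times as long as the parent list. Counts for the genes of other tissues in which GATA factors act are read against that. The 7 endoderm genes went from 20 to 34 intervals (1.70 times), with a promoter interval at 3 genes in parent and 6 in ΔSRR2–18. The number rose at 5 of them, among them the endoderm regulator *Sox17* (0 and 4). It fell at 1, *Foxa2* (4 and 3), and was the same at 1, *Foxa1* (4 and 4). The 7 heart genes went from 24 to 31 (1.29 times, near the rise of the whole list), with a promoter interval at 3 genes in parent and 5 in ΔSRR2–18. At 6 of them the number rose, among them *Hand2* (3 and 9), and at 1, *Mef2c* (14 and 7), it fell. The 7 blood and endothelium genes went from 22 to 47 (2.14 times), of which *Runx1* alone went from 5 to 23. The number rose at 4 of these genes, fell at 1 and was the same at 2. The 8 neural stem and progenitor genes went the other way, from 75 to 49, with *Notch1* from 22 to 9. The number fell at 6 of these genes, rose at 1 and was the same at 1. The 16 T-box genes, another family of developmental regulators, went from 40 to 56, with 67.9% of the ΔSRR2–18 intervals and 55% of the parent intervals in 1 list only, near the 63.1% and 52.3% of the whole lists.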

How the data were processed

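The ATAC-seq reads of 3 cultures per genotype were processed by the authors with the ENCODE ATAC-seq pipeline, with peaks called by MACS2 and filtered by IDR, in mm10. The 4 deposited peak lists (conservative and optimal per genotype) are pooled over cultures. Each peak carries an IDR score, a fold enrichment ratio over local background and a −log10 p-value, all as deposited by the authors, and a summit position. The labels give 50000000 to 60000000 reads and 30000 cells per culture in both genotypes, and the paper a wider range of cells. They thus show no difference in depth, which was taken from the peak lists alone.

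The conservative lists were used. An interval took its values from the summit with the highest fold enrichment. Reads and local background at each summit were solved from fold enrichment and −log10 p under the Poisson model of MACS2. They came out whole within 0.05 for 99.9993% of parent and 100% of ΔSRR2–18 peaks. They are pileup heights and not distinct fragments. A summit at most 1 kb from a GENCODE M21 basic TSS made an interval a promoter interval. Intervals overlapping by at least 1 bp were paired. Motifs were exact matches within 100 bp of the strongest summit. Reads of the Cast allele that differ from mm10 can map less often. Computation used Python 3.11.15, numpy 2.4.6, pandas 2.3.3 and SciPy 1.17.1, and its steps were tested on simulated data. The members and gene lists were chosen with earlier results of these data known. The text names every interval of the 5 genes.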

Additional observations from a re-analysis of the deposited data

How the results depend on the processing

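With pooled lists there was no error between cultures, and no test or leave-one-out could be run. No paired analysis was possible because the deposited columns carry no culture number. The number of ΔSRR2–18 intervals at *Gata* genes, 24, ranged from 18 to 30 under 9 of 10 other list settings and was 13 with a distance of at most 10 kb. Parent intervals, 11, ranged from 8 to 15. ΔSRR2–18-only intervals, 14, fell to 5 within 10 kb and to 9 with the ΔSRR2–18 list shortened to the parent length by −log10 p, and were 12 when absence was judged against the parent optimal list. The parent-only count of 1 moved under 7 of 13 settings. It was 3 in the optimal lists, within 100 kb and with the ΔSRR2–18 list shortened by fold enrichment, 2 with gene 5′ ends only, with the list shortened by −log10 p and at a common depth with −log10 p of at least 50, and 0 within 10 kb. In 48 of 50 combinations of gene and list setting ΔSRR2–18 had more intervals, with *Gata5* in the optimal lists (4 and 2) and *Gata3* within 10 kb (2 and 2) as exceptions. GATA matches, found in 10 of the 35 intervals, were in 4 with a window of 50 bp and in 22 over the whole interval, where longer sequence gives more matches, and AP-1 matches in 9, 7 and 12. A site open in both genotypes counts once for each list here. Ranked by reads or by −log10 p, 3 of the 10 overlapping pairs stood higher in ΔSRR2–18, and by fold enrichment 1 did. The lower ΔSRR2–18 depth limits what could be listed there.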
